A study of Mus musculus with 2 samples.

Results

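A set of 402 fetal liver cells was taken from 8583 fetal liver cells that passed the quality limits, and from 15841 such cells in both libraries of the study. The cells were chosen by measured RNA counts alone. Each chosen cell held at least 2 unique molecular identifiers (UMIs, tags that count single RNA molecules) of Zbtb16 and Pdcd1 together. Each also stayed under 4 UMIs for a natural killer (NK) sum of Klrd1, Klrk1, Klrc1 and Ncr1, under 4 for a lymphoid tissue inducer (LTi) sum of Il22, Il23r, Il17re, Ccr6 and Cxcr5, under 4 for a group 2 innate lymphoid cell (ILC2) sum of Il13, Il17rb, Icos, Stab2, Slc38a4 and Rxrg, and under 3 for an early lymphoid sum of Ly6d, Arpp21, Plac8 and Adgrg1. The rule was built to pick progenitors of innate lymphoid cells (ILCs) that carry the transcription factor PLZF. The markers given for such cells were Zbtb16, Pdcd1, Tcf7, Cck and H19, and the measured values went only part of the way with that name. Most of the chosen cells had no Zbtb16 UMI, and Cck was lower in them than in the rest of fetal liver. They are therefore called Zbtb16/Pdcd1-selected cells, or selected cells, below.

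The study compared α4β7-positive lymphoid progenitors of fetal liver with those of adult bone marrow, in untreated wild-type B6 mice, with 1 droplet library per organ. The design text dates the fetal livers to E14.5, while an age of 6 to 8 weeks stands on both samples. Cells had been sorted as Lin−CD45+CD127+Flt3−α4β7+CD25−, both samples carry the same batch label, and how many animals were pooled, or which antibodies made up the lineage cocktail, is not stated. With 1 library per organ there are no replicates and no test between groups, so every interval below covers counting error only.

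ILCs are lymphocytes without rearranged antigen receptors that live mainly in tissues. Zbtb16 encodes PLZF, a zinc finger factor that is switched on for a time in the precursor of several ILC lineages, and Pdcd1 encodes PD-1, an inhibitory receptor of activated T cells that is also found on such precursors. Tcf7 encodes TCF-1, which acts at the earliest steps of T cell and ILC development, Cck encodes the peptide hormone cholecystokinin, and H19 is a maternally expressed imprinted long non-coding RNA of fetal tissues.

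By the GENCODE M21 annotation of build GRCm38, Zbtb16 lies at chr9:48654297-48836222 on the minus strand, Pdcd1 at chr1:94038305-94052553 on the minus strand, and Tcf7 at chr11:52252371-52283014 on the minus strand. Cck lies at chr9:121489824-121495694 and H19 at chr7:142575529-142578143, both on the minus strand. RefSeq promoter sequence of the same build (GRCm38.p6) was matched for 3 of the 5 markers. The 250 bases before the start site are shown for Pdcd1, which brought most cells into the set, for Cck, the marker that went against the name, and for Dlk1, the imprinted gene with the largest ratio below. Capitals mark every hit, on either strand, of 3 motifs of 6 letters each, 1 for TCF, 1 for RUNX and 1 for GATA factors, which are spelled out under the sequences.
Pdcd1, chr1:94052554-94052803, minus strand: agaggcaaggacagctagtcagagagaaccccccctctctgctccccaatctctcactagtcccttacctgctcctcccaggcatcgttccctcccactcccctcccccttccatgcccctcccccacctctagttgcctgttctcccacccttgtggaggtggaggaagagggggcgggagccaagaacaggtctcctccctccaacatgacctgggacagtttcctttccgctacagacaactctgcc
Cck, chr9:121495695-121495944, minus strand: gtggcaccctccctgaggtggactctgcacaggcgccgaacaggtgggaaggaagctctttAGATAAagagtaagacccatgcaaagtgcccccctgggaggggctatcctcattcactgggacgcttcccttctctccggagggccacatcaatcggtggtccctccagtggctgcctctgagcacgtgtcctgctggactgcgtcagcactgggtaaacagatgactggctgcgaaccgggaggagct
Dlk1, chr12:109452573-109452822, plus strand: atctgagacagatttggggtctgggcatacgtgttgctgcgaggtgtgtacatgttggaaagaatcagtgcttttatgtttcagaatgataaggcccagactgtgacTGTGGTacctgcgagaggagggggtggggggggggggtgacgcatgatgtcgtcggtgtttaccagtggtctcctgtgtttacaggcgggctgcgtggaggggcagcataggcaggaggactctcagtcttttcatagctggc
The Pdcd1 window held none of these letter strings, the Cck window held the GATA letters once, and the Dlk1 window held the RUNX letters once. The TCF letters, CTTTGA, were in 13.8% of 32851 windows of the same length in the table. The RUNX letters, TGTGGT, were in 14.0% of them. The GATA letters, AGATAA, were in 9.99% of them. A match is a description of the letters and not a measured binding site.

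The selected cells made up 4.68% of fetal liver cells (exact binomial 95% interval 4.25% to 5.15%), and 300 of 7258 bone marrow cells, or 4.13% (3.69% to 4.62%), met the same rule. In fetal liver 1575 cells had the 2 Zbtb16 and Pdcd1 UMIs, and 1173 of them (74.5%) were removed by the other sums, 359 of these by Plac8 alone. Of the selected cells 220 sat at the limit of 2 UMIs, 126 had 3 and 56 had 4 or more, up to 9, and 621 cells with otherwise low sums lay just outside it with 1 UMI. On the other limits, 19 cells were just inside for the NK sum, 22 for the LTi sum, 38 for the ILC2 sum and 38 for the early lymphoid sum. Most selected cells carried some of the excluded transcripts: 192 had a UMI of the ILC2 sum, 149 of the LTi sum, 97 of the early lymphoid sum and 89 of the NK sum, and in 51 all 4 sums were 0.

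The 2 genes of the rule were detected in partly separate cells, and Pdcd1 in more of them. The rule admits a cell on either gene, so these shares describe the set and are not a result. A missing UMI depends on depth too. After thinning to 2000 UMIs, Zbtb16 was left in 30.2% of the selected cells that had a Zbtb16 UMI before. Pdcd1 was detected in 367 selected cells (91.3%, interval 88.1% to 93.9%) and Zbtb16 in 160 (39.8%, 35% to 44.8%). Both were detected in 125 cells, Zbtb16 without Pdcd1 in 35, and Pdcd1 without Zbtb16 in 242 (60.2%). In bone marrow cells of the same rule the order was the other way, with Zbtb16 in 258 of 300 cells (86%) and Pdcd1 in 187 (62.3%). Those cells were chosen by the same counts at a median depth of 3681 UMIs, so this order describes the sets as well. The selected cells held 9.04% of all Zbtb16 UMIs and 21.0% of all Pdcd1 UMIs of kept fetal liver cells. With every cell thinned to 2000 UMIs, Zbtb16 was seen in 12% of 401 selected cells (39.8% before thinning). Among all other fetal liver cells, whatever their Zbtb16 and Pdcd1 count, the share was 4.99% (21.7% before). Of cells at or over a single limit, it was seen in 6.80% for the early lymphoid sum (30.3% before) and 5.12% for the ILC2 sum (26.7%). The shares were 3.75% for the NK sum (16.3%) and 1.81% of 552 cells for the LTi sum (6.80%). Cells over several limits are in none of these single-limit groups. The rule itself sets these differences, thinned or not, so the other shares serve only as levels to read the first beside. Median depth was 8106.5 UMIs in the selected cells and 6343 in the cells at or over the LTi limit only, and free RNA in droplets was not measured.

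As levels, counts were summed over a group of cells and written as UMIs per 1000000 UMIs (CPM). Zbtb16 stood at 70.2 CPM in the selected cells, 14.7 CPM in the 2194 fetal liver cells that passed every excluded sum but had under 2 Zbtb16 and Pdcd1 UMIs (called under-limit cells here), 27.7 CPM in all other fetal liver cells, and 405 CPM in bone marrow cells of the rule. Pdcd1 stood at 247, 27.8, 36.5 and 244 CPM in the same 4 groups. These 2 genes chose the cells in both organs, by the same count per cell at different depths, so their levels describe the sets and are not a result, neither over the rest of an organ nor between the organs.

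Against all other fetal liver cells Tcf7 and H19 were somewhat higher in the selected cells and Cck was lower, but neither Tcf7 nor H19 was particular to them. Tcf7 measured 299 CPM in the selected cells, 257 CPM in under-limit cells, 192 CPM in all other fetal liver cells, and 444 CPM in bone marrow cells of the rule. H19 measured 123 CPM in the selected cells, 38.4 CPM in under-limit cells and 97.7 CPM in all other fetal liver cells, against 6.09 CPM in bone marrow cells of the rule. Against all other fetal liver cells the log2 ratio of Tcf7 was 0.64 (0.55 to 0.73) and that of H19 was 0.33 (0.19 to 0.47), both under the 2-fold line. Cck measured 13.1 CPM in the selected cells and 51.5 CPM in all other fetal liver cells (−1.98, −2.44 to −1.56), and no Cck UMI was found in either bone marrow group. Its 45 UMIs came from 7 selected cells, 1 of which held 15, so the level rests on very few cells. When the rule was run on cells thinned to 3000 UMIs the Cck ratio turned to 0.93, and H19 moved to 1.37.

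**Figure D1:**
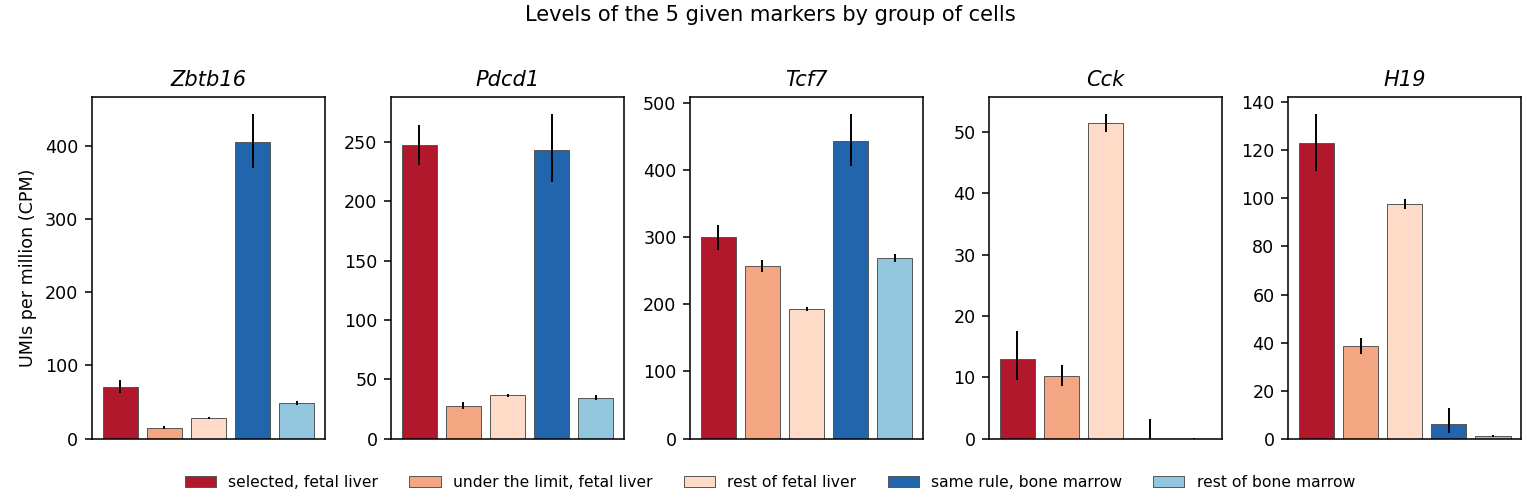
Summed levels of the 5 given markers in UMIs per 1000000 (CPM, linear axes from 0) in the selected fetal liver cells, under-limit fetal liver cells, all other fetal liver cells, bone marrow cells of the same rule and the rest of bone marrow. Bars are sums over cells of 1 library and error bars are exact Poisson 95% intervals: Zbtb16 is 70.2 CPM in the selected cells and 405 CPM in bone marrow cells of the rule, and Cck is highest, at 51.5 CPM, in the other fetal liver cells.

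Zbtb16 and H19 levels differed between the groups of cells that the excluded sums removed. These 1173 cells also held at least 2 Zbtb16 and Pdcd1 UMIs, so their Zbtb16 levels describe the sets and are not a result. Median depth ran from 7507 UMIs over the LTi limit only to 14458.5 over several limits, against 8106.5 in the selected cells, and its part was not tested. Zbtb16 measured 101 CPM in 137 cells over the ILC2 limit only, 94.1 CPM in 407 cells over the early lymphoid limit only and 98.1 CPM in 374 cells over several limits. It measured 57.3 CPM in 161 cells over the NK limit only and 30.8 CPM in 94 cells over the LTi limit only, against the 70.2 CPM of the selected cells. H19 was spread more widely still, at 302 CPM in the early lymphoid-sum cells, 317 CPM in the several-sum cells, 183 CPM in the ILC2-sum cells and 43.4 CPM in the NK-sum cells. In the 94 cells removed by the LTi limit only, no H19 UMI was found, which allows up to 3.85 CPM (3 counts). In 3 of the 5 removed groups the H19 level was thus above that of the selected cells.

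Set beside all other fetal liver cells, the selected cells were higher in a group of genes that includes Dlk1, Lta and Tox2, and lower in B cell, myeloid, erythroid, mast cell and NK effector genes. Calls were made by size over 6445 genes that reached 10 CPM in either group, without the genes of the rule. By a 2-fold limit 90 of them (1.4%) stood higher and 93 (1.44%) lower in the selected cells. The counts that chose the cells belong to the same contrast, so these are descriptions with no test. Among the 12 largest ratios at 50 CPM or more were those of Prr29, Dgat1, Dlk1, Igfbp7, Cxcl3, Hmgn3, Sdc4, Lta, Cd200r1, Tox2 and Batf3. None of these 11 was 2-fold apart from under-limit cells: the ratio to those cells ran from −0.42 for Lta to 0.60 for Cd200r1. Prr29 measured 174 CPM in the selected cells and 176 CPM in under-limit cells, and Hmgn3 392 CPM in the selected cells and 448 CPM in under-limit cells. Dlk1, an imprinted inhibitor-like ligand of the Notch family, measured 179 CPM in the selected cells and 63.1 CPM in the others (log2 ratio 1.5, 1.38 to 1.62). Igfbp7, a secreted binding protein of insulin-like growth factors, measured 120 CPM in the selected cells and 42.8 CPM in the others (1.49, 1.34 to 1.63). Hmgn3 had a ratio of 1.32, Cxcl3 1.41 and Cd200r1, an inhibitory receptor of myeloid and lymphoid cells, 1.14. Tox2, an HMG box factor of ILC and NK cell development, measured 117 CPM in the selected cells and 53.8 CPM in the others (1.12, 0.97 to 1.27).

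Of the LTi and ILC3 list, 10 genes outside the rule were measured, 5 were at least 2-fold higher in the selected cells, none was 2-fold lower, and the median log2 ratio was 0.95, against a median of 0.01 over all genes measured. Among the 5 were Il1r1, the interleukin 1 receptor (1.44), Cd4 (1.35), Lta, the cytokine lymphotoxin alpha (1.19), and Batf3 (1.10). Lta measured 539 CPM in the selected cells and 236 CPM in the others. Under-limit cells did not stand lower in this list: Lta measured 723 CPM in them. The summed level of the list outside the rule was 1947 CPM in the selected cells, 2355 CPM in under-limit cells and 1038 CPM in all other fetal liver cells. Other forms of the rule changed some of these directions. With at least 2 Zbtb16 UMIs required, the ratio of Lta became −0.14, that of Prr29 −0.49 and that of Dgat1, an enzyme of triglyceride synthesis, −0.18. That form kept few cells, 0.734% of fetal liver cells against 4.68% by the main rule. With Plac8 left out of the early lymphoid sum, Lta became −0.061 and Sdc4, a cell surface proteoglycan, −0.014.

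Genes of other lineages stood among the lower ones. Of 6 B lineage genes measured 5 were lower, and Mzb1, a chaperone of antibody-making cells, measured 2.03 CPM in the selected cells and 63.5 CPM in the others. All 9 measured genes of the myeloid, erythroid and mast list were lower, with a summed level of 66.2 CPM in the selected cells and 522 CPM in the others. Prtn3, a granule protease of myeloid progenitors, measured 2.61 CPM in the selected cells and 66.9 CPM in the others (log2 ratio −4.68). Cpa3, a mast cell protease, measured 23.8 CPM in the selected cells and 169 CPM in the others (−2.83), and its ratio became 0.32 with Plac8 left out of the early lymphoid sum. Hbb-bs, a beta globin gene that shares reads with near-identical copies, had a ratio of −3.02, which became 0.84 when at least 1000 genes per cell were required. Alox5ap, of leukotriene synthesis, had −2.25, and Mt1, a metallothionein, −1.71, which became 0.10 with at least 2 Zbtb16 UMIs required. Of 14 NK and ILC1 genes outside the rule 5 were lower, among them Gzma (−3.89), and none was 2-fold higher, although the list median was 0.17. In the selected cells Pax5, Blnk, Rag1, Rag2, Dntt, Elane, Csf1r, Prf1, Alb and Ttr were at 0 UMIs, which allows up to 0.871 CPM each. Of these, Alb and Ttr mark hepatocytes, whose list summed to 29.9 CPM in the selected cells and 22.8 CPM in the others. Dntt (0.0114 CPM) and Prf1 (0.182 CPM) were under the bound of 0.871 CPM in the others too, so a 0 shows no difference for them.

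Among ILC progenitor factors outside the rule, 18 were measured, 1 was at least 2-fold higher (Tox2), 1 at least 2-fold lower (Myb) and the median log2 ratio was 0.04. Id2, which opposes E protein factors in all ILCs, measured 821 CPM in the selected cells and 558 CPM in the others (0.56, 0.50 to 0.61). Myb, a factor of haematopoietic progenitors, measured 18.9 CPM in the selected cells and 43.7 CPM in the others (−1.21, −1.59 to −0.86). Sox4, an HMG box factor, had a ratio of −0.92 (−1.16 to −0.70). Gata3, needed for all helper ILCs, measured 89.1 CPM in the selected cells and 109 CPM in the others. The sort genes Il7r (288 CPM in the selected cells and 174 CPM in the others) and Itgb7 (60.9 CPM in the selected cells and 47.4 CPM in the others) were present. Itga4 (145 CPM in the selected cells and 173 CPM in the others) and Ptprc (66.5 CPM in the selected cells and 79.0 CPM in the others) were present at slightly lower levels. Flt3 and Il2ra stood at 0.871 CPM each in the selected cells.

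The closer comparison is with the 2194 under-limit cells, which pass the same excluded sums and were set apart by the Zbtb16 and Pdcd1 count, though they also differ in depth and in myeloid transcripts, as given below. Here few genes parted the groups. Of 6432 genes 13 (0.202%) were at least 2-fold higher and 39 (0.606%) at least 2-fold lower, and 99.2% stayed within 2-fold. Of named genes with at least 50 CPM H19 had the largest ratio, at 123 CPM in the selected cells and 38.4 CPM in under-limit cells (log2 ratio 1.68, 1.49 to 1.86). The reciprocally imprinted growth factor gene Igf2, its neighbour, which was named after its value was seen, measured 25.8 CPM in the selected cells and 5.74 CPM in under-limit cells (2.17). Tnni1, slow skeletal troponin I, measured 64.7 CPM in the selected cells and 28.5 CPM in under-limit cells (1.18, 0.94 to 1.42). Bcl11b, a factor of T cell commitment and of ILC2, measured 38.3 CPM in the selected cells and 18.5 CPM in under-limit cells (1.05, 0.74 to 1.35). Of the 13, Cd3d, the CD3 delta chain, measured 30.8 CPM in the selected cells and 13.5 CPM in under-limit cells (1.18, 0.83 to 1.53). Hmga2, a chromatin protein of fetal progenitors, measured 23.2 CPM in the selected cells and 10.4 CPM in under-limit cells (1.16, 0.75 to 1.56). Dhrs2 (1.47), the fatty acid binding protein gene Fabp4 (1.28), Nipal1 (1.28), Raph1 (1.10), Nrp2 (1.05), Crem (1.04) and a gene model without a name made up the rest, and like Cd3d and Hmga2 were named after their values were seen. With all 4 excluded sums at 0, the ratio of Cd3d became −0.26, that of Fabp4 −0.12 and that of Raph1 −0.019, and with 2 Zbtb16 UMIs that of Crem became −0.21. Under 2-fold stood 0.83 for the interferon-induced membrane protein gene Ifitm2, 0.68 for the LIM domain factor gene Lmo4 and 0.66 for Cd3g, the CD3 gamma chain. Of 18 ILC progenitor factors 12 were above 0 and 6 below, with a median of 0.19, and only Bcl11b passed 2-fold.

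Neutrophil and red cell transcripts held the lowest ratios. S100a8, a calcium-binding protein of neutrophils, measured 1.16 CPM in the selected cells and 259 CPM in under-limit cells. Its partner S100a9 was at 0 in the selected cells and 232 CPM in under-limit cells, at least 266-fold lower in the selected cells, set against 3 counts over the group. Stfa1, a cysteine protease inhibitor, measured 1.16 CPM in the selected cells and 112 CPM in under-limit cells (−6.59). The myeloid, erythroid and mast list summed to 66.2 CPM in the selected cells and 1060 CPM in under-limit cells. Their part in the other ratios of this comparison was not tested. Requiring at least 1000 genes per cell turned the Hbb-bs ratio of −5.53 to 0.36. In cells with Y-linked UMIs and no Xist UMI the ratio of Stfa1 became 0.14. S100a9 stayed at 0 in these selected cells, so its value of 0.50 there is a bound at 3 counts and shows no reversal. Depth also differed, with a median of 8106.5 UMIs in the selected cells and 5823 in under-limit cells. Some lymphoid genes were lower too. Of 13 NK and ILC1 genes measured 4 were at least 2-fold lower and none higher, with a list median of 0.02. Among the 4 was Ifng, at 77.8 CPM in the selected cells and 187 CPM in under-limit cells. Of 4 MHC class II genes measured 3 were at least 2-fold lower, and the list summed to 124 CPM in the selected cells and 289 CPM in under-limit cells.

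Followed over the Zbtb16 and Pdcd1 count in fetal liver cells with all 4 excluded sums low, H19 stood at 27.1 CPM with 0 UMIs of both genes (1573 cells), 63.8 CPM with 1 (621 cells), 107 CPM with 2, 132 CPM with 3 and 158 CPM with 4 or more. Each step up from 0 to 2 UMIs was larger than the counting intervals, and the steps above 2 were not. Tnni1 stood at 21.6, 44.1, 63.4, 66.4 and 65.6 CPM in the same order, with no step beyond its interval from 2 UMIs on. Tcf7 stood at 232 CPM with 0 UMIs and between 275 and 313 CPM in the other 4 bins. Lta ran the other way and was lowest in the upper bins, at 762, 636, 678, 407 and 356 CPM. Median depth went up over the bins too, from 5459 to 9239 UMIs, and its part was not tested.

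**Figure D2:**
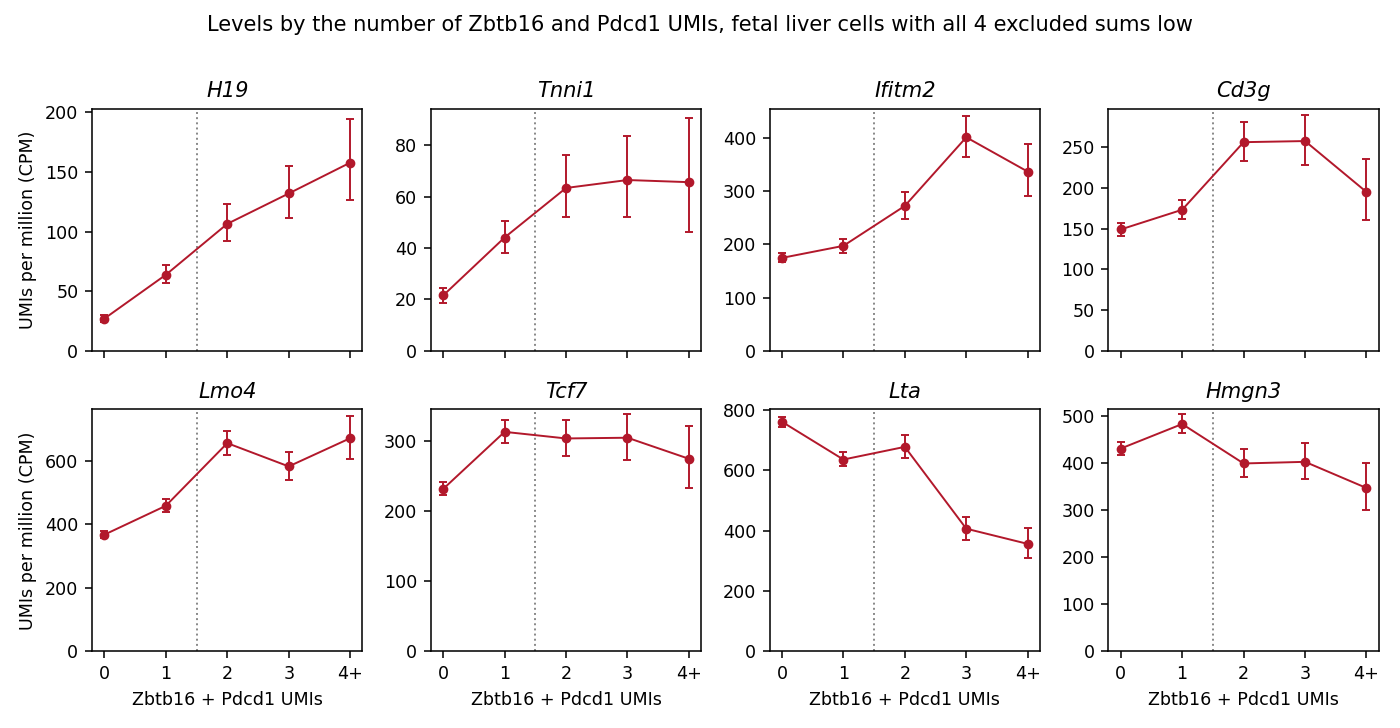
Summed level in UMIs per 1000000 (CPM, linear axes from 0) of 8 genes in fetal liver cells with all 4 excluded sums low, by the number of Zbtb16 and Pdcd1 UMIs in the cell. Points are sums over the cells of a bin with exact Poisson 95% intervals, and the dotted line is the limit of 2 UMIs: H19 goes from 27.1 to 158 CPM and Lta from 762 to 356 CPM.

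Within the selected cells, the 160 with a Zbtb16 UMI and the 242 with Pdcd1 UMIs only had different leading genes. Of 6535 genes 140 (2.14%) were at least 2-fold higher in the Zbtb16-bearing cells and 131 (2%) at least 2-fold lower. At a minimum of 50 CPM, where counting error is small, these were 10 and 9 genes. The 3 largest ratios at that minimum were those of Ifitm2, Tnni1 and H19. Ifitm2 measured 519 CPM in Zbtb16-bearing cells and 170 CPM in Pdcd1-only cells (log2 ratio 1.61, 1.42 to 1.80). H19 measured 194 CPM in Zbtb16-bearing cells and 66.6 CPM in Pdcd1-only cells (1.54, 1.24 to 1.85). Its UMIs were seen in 23.9% of Zbtb16-bearing cells and 6.20% of Pdcd1-only cells after thinning to 2000 UMIs (34.4% and 12% before). The share was 10.9% in all other fetal liver cells (26.0% before). Of cells at or over a single limit, H19 was seen in 19.6% for the early lymphoid sum (46.1% before) and 13.0% for the ILC2 sum (32.5%). It was seen in 3.13% for the NK sum (10.9%) and 0.543% of 552 cells for the LTi sum (2.15%).

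Cd3g measured 355 CPM in Zbtb16-bearing cells and 160 CPM in Pdcd1-only cells (1.15, 0.94 to 1.36). It was not higher in the selected cells (247 CPM) than in all other fetal liver cells (281 CPM, log2 ratio −0.19). After the same thinning as for H19, Cd3g was seen in 33.3% of Zbtb16-bearing, 16.5% of Pdcd1-only and 32.4% of all other fetal liver cells. Of cells at or over a single limit, it was seen in 53.7% for the ILC2 sum and 34.9% for the early lymphoid sum. The shares were 31.0% for the NK sum and 2.17% for the LTi sum. Nkg7, a granule protein of cytotoxic lymphocytes, measured 394 CPM in Zbtb16-bearing cells and 186 CPM in Pdcd1-only cells (1.08, 0.89 to 1.27). Mgst2, a glutathione transferase, had a ratio of 1.32 and Dhrs2, a short-chain dehydrogenase, 1.13. The related genes Ifitm1 (1.15) and Ifitm3 (1.22), whose reads may overlap with those of Ifitm2, were higher too. Of the ILC progenitor factors only Myb passed 2-fold, at 30.2 CPM in Zbtb16-bearing cells and 9.89 CPM in Pdcd1-only cells (1.61, 0.81 to 2.46), while Gata3 had 0.15 and Tcf7 −0.14. Cck was found in 5 Zbtb16-bearing cells and 2 Pdcd1-only cells, and its ratio of 4.76 became −0.68 with Plac8 left out of the early lymphoid sum.

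The Pdcd1-only cells were higher in a set of genes that includes several of the largest ratios against the rest of fetal liver. Cxcl3, a neutrophil-attracting chemokine, measured 66.2 CPM in Zbtb16-bearing cells and 167 CPM in Pdcd1-only cells (log2 ratio −1.33, −1.67 to −1.0). Dgat1 measured 33.4 CPM in Zbtb16-bearing cells and 94.7 CPM in Pdcd1-only cells (−1.50, −1.98 to −1.05). Rasl11a, a small GTPase, had −1.80, Capg, an actin-capping protein, −1.51, Ccdc189 −1.47, Krt8, a keratin, −1.23, Rbpms2, an RNA-binding protein, −1.12 and Gadd45b, a stress-induced gene, −1.03, which became 0.18 when all 4 excluded sums had to be 0. Hmgn3, a nucleosome-binding protein, stayed under 2-fold, at 276 CPM in Zbtb16-bearing cells and 485 CPM in Pdcd1-only cells (−0.81, −0.98 to −0.64). Of 11 MHC class I genes measured none passed 2-fold and 10 were below 0, with H2-D1 at 346 CPM in Zbtb16-bearing cells and 685 CPM in Pdcd1-only cells (−0.99). The 3 measured genes of the myeloid, erythroid and mast list were all at least 2-fold higher in Zbtb16-bearing cells, and the list summed to 104 CPM there and 35.9 CPM in Pdcd1-only cells. Median depth was 8921 UMIs in Zbtb16-bearing cells and 7515 in Pdcd1-only cells, and the part of neither in these ratios was tested.

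**Figure D3:**
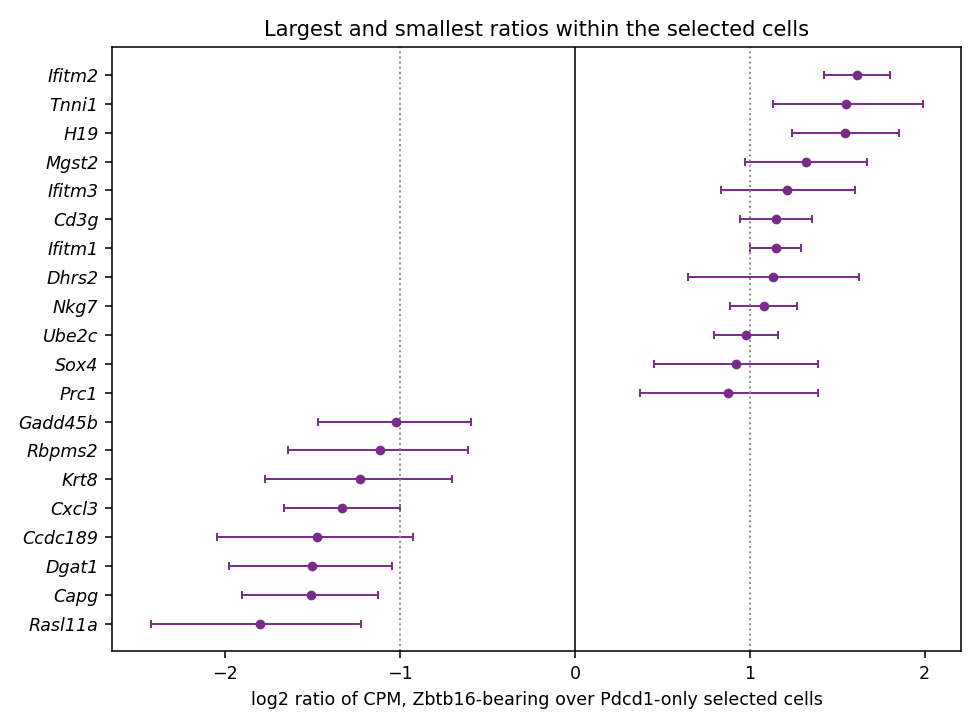
Log2 ratio of summed CPM, selected cells with a Zbtb16 UMI over selected cells with Pdcd1 UMIs only, for the 12 largest and 8 smallest ratios among genes of at least 50 CPM in the higher group. Bars are exact conditional 95% intervals for counting error and dotted lines mark 2-fold: Ifitm2 is at 1.61 and Rasl11a at −1.80.

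Clusters of the kept fetal liver cells, made without the genes of the rule, placed the selected cells in 9 of 13 groups, which are given by number only. Cluster 0 held 127 of them, cluster 3 held 95, cluster 1 held 79, cluster 2 held 38 and cluster 10 held 26, and the first 3 together held 74.9%. They were nowhere the majority: 8.72% of cluster 0 and 15.3% of the small cluster 10, the highest share, were selected cells. Zbtb16, which played no part in the clustering, was found in 58.2% of the selected cells in cluster 1 (interval 46.6% to 69.2%), whose leading genes were Cck, Dhrs2 and H19. It was found in 29.9% of those in cluster 0 (22.1% to 38.7%), led by Krt8, Lta and Rasl11a, and in 24.2% of those in cluster 3 (16% to 34.1%), led by H2-Q7, H2-Q6 and H2-Q4. The median depth of the selected cells was 8935 UMIs in cluster 1, 7136 in cluster 0 and 6517 in cluster 3, and its part in these shares was not tested. Krt8 and Rasl11a, higher in the Pdcd1-only cells, stand among the leading genes of cluster 0, and H19 and Dhrs2, higher in the Zbtb16-bearing cells, among those of cluster 1. Reads of the H2-Q genes, which are close copies, may be split between them.

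**Figure D4:**
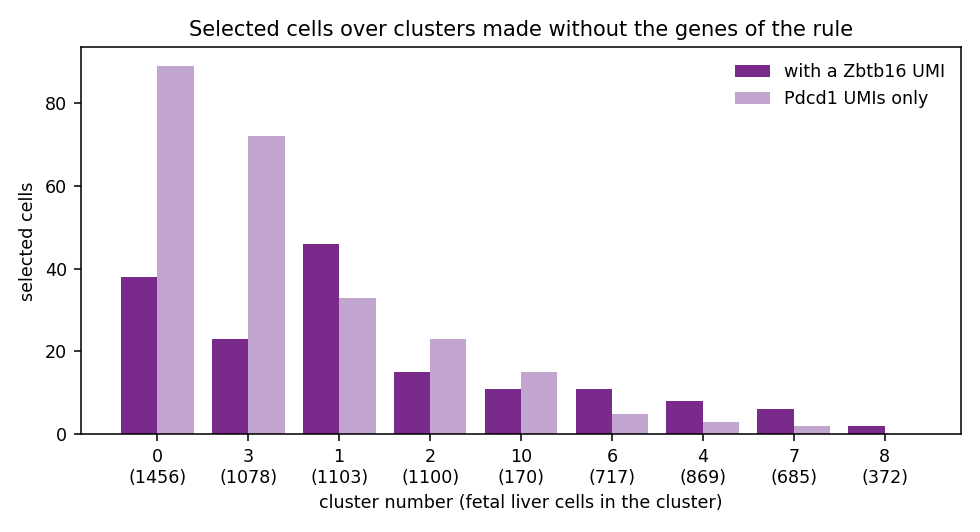
Number of selected cells (vertical axis, from 0) in each of the 9 fetal liver clusters that held any, split into those with a Zbtb16 UMI and those with Pdcd1 UMIs only, with the number of fetal liver cells in the cluster in brackets. Zbtb16-bearing cells outnumber Pdcd1-only cells in cluster 1 (46 and 33) and not in cluster 0 (38 and 89). On few cells, they also do so in clusters 6 (11 and 5), 4 (8 and 3), 7 (6 and 2) and 8 (2 and 0).

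Selected cells were found among cells with Xist, the transcript of the inactive X, and among cells with Y-linked transcripts. Of fetal liver cells with Xist and no Y-linked UMI 4.26% were selected (147 of 3448, interval 3.61% to 4.99%), and of those with Y-linked UMIs and no Xist 5.08% (134 of 2639, 4.27% to 5.99%). In bone marrow no kept cell had Xist UMIs alone. Kept fetal liver cells were also put in 4 groups of equal size by UMI count. The share of selected cells in them, shallow to deep, was 4.57%, 7.55%, 5.08% and 1.54%, while the share with 2 or more Zbtb16 and Pdcd1 UMIs was 6.99%, 18.6%, 23.3% and 24.5%.

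Against bone marrow cells of the same rule, the selected fetal liver cells were higher in cell division, imprinted and glycolysis genes and lower in most ILC progenitor factors, immediate early genes and MHC class II genes. The rest of fetal liver and the rest of bone marrow differed in the same direction in these lists. In that order S phase genes summed to 2943 and 1554 CPM, and glycolysis genes to 6634 and 2550 CPM. Imprinted genes summed to 758 and 405 CPM, and ILC progenitor factors outside the rule to 2546 and 5466 CPM. Immediate early genes summed to 5780 and 16770 CPM, and MHC class II genes to 140 and 706 CPM. Such gaps are thus not particular to the cells of the rule. Of 7211 genes 971 (13.5%) were at least 2-fold higher and 1259 (17.5%) at least 2-fold lower. A trimmed-mean scaling moved every ratio by 0.16 and gave 1236 higher and 1011 lower. In cells with Y-linked UMIs and no Xist UMI, 134 in fetal liver and 153 in bone marrow, the counts were 1120 higher and 1346 lower. Organ, age (fetal or adult), library and depth cannot be told apart here: the median was 8106.5 UMIs in the selected cells and 3681 in the bone marrow cells, a 2.20-fold gap. Restricting both organs to cells with a Zbtb16 UMI, 160 and 258 cells, gave 1008 higher and 1336 lower genes.

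Genes of DNA synthesis and mitosis differed between the fetal liver and the adult bone marrow cells of the rule. Of 39 S phase genes measured, the fetal cells had 32 at least 2-fold higher and none lower, with a median log2 ratio of 2.58. Of 41 G2 and M phase genes 32 were higher and none 2-fold lower, with a median of 2.59. Ube2c, a ubiquitin-conjugating enzyme of mitotic exit, measured 306 CPM in the selected cells and 1.74 CPM in bone marrow cells of the rule (7.46, 5.60 to 10.51). Birc5, survivin, measured 224 CPM in the selected cells and 1.74 CPM in the bone marrow cells (7.01, 5.15 to 10.05). Ccnb2, a mitotic cyclin, had a ratio of 5.76 (3.90 to 8.82) and Mcm5, of the replicative helicase, 5.14 (3.27 to 8.19), both on 2 bone marrow UMIs. After thinning to 2000 UMIs, 42.1% of selected cells (37.3% to 47.1%) and 4.11% of the bone marrow cells (2.14% to 7.07%) had a UMI of Ube2c, Birc5, Top2a, Cdk1 or Ccnb2 (65.2% and 7.33% before thinning). The shares in the rest of each organ were 50.3% in fetal liver and 12.7% in bone marrow. Within bone marrow 229 of 6998 genes (3.27%) were at least 2-fold higher and 337 (4.82%) lower in cells of the rule than in the rest. The G2 and M phase list had a median of −0.38 in the selected cells against the rest of fetal liver, and of −1.83 in the bone marrow cells of the rule against the rest of bone marrow. The difference between these 2 contrasts was not tested.

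Of 6 imprinted growth genes 5 were at least 2-fold higher in the selected fetal liver cells and none was lower, with a median of 3.37. Dlk1 measured 179 CPM in the selected cells and 1.74 CPM in bone marrow cells of the rule (6.68, 4.82 to 9.73), and H19 123 CPM in the selected cells and 6.09 CPM in the bone marrow cells (4.34, 3.28 to 5.66). Lta measured 539 CPM in the selected cells and 11.3 CPM in the bone marrow cells (5.58, 4.8 to 6.49), and Prr29 had a ratio of 5.64. Cd3g measured 247 CPM in the selected cells and was at 0 in the bone marrow cells, at least 94.5-fold higher in fetal liver against 3 counts over the group. Ifitm1 was at 489 CPM in the selected cells and at 0 in the bone marrow cells, at least 187-fold higher, and Ifitm2 had 5.96. Gimap4, a GTPase of lymphocyte survival, had 5.92 (3.42 to 11.23) on 1 bone marrow UMI, and Slfn2, a factor of T cell quiescence, 5.27 (3.40 to 8.32).

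Most progenitor factors stood lower in the selected fetal liver cells than in the bone marrow cells. Of 21 measured outside the rule, 14 were at least 2-fold lower and 2 at least 2-fold higher, with a median of −1.21. With the trimmed-mean scaling 12 were lower. Lmo4 measured 634 CPM in the selected cells and 3720 CPM in the bone marrow cells (−2.55, −2.63 to −2.48). Gata3 measured 89.1 CPM in the selected cells and 539 CPM in the bone marrow cells (−2.60, −2.80 to −2.40). Sox4 (−3.28), Lef1, a partner of TCF-1 (−4.06), Nfia (−3.79), Tox (−1.82), Tox2 (−1.50) and Runx3 (−1.25) were lower as well. The exceptions were Runx1, a factor of blood stem cell emergence, at 49.0 CPM in the selected cells and 8.70 CPM in the bone marrow cells (2.49, 1.58 to 3.58), and Id3, at 15.7 CPM in the selected cells and 0 in the bone marrow cells. Id3 was at least 6-fold higher by that bound, and its bound turned to −0.63 with 3 Zbtb16 and Pdcd1 UMIs required, where fewer counts remain. Id2 was lower by a ratio of −1.01, which is under 2-fold with the trimmed-mean scaling. The sort gene Il7r had −1.43, the ILC2 factor gene Rora −2.25 and the survival gene Bcl2 −2.74.

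The lowest ratio was that of Bcas1os2, at 0.290 CPM in the selected cells and 73.1 CPM in the bone marrow cells (−7.98, −13.30 to −5.46). Its neighbour on the other strand, Bcas1, had −7.55, and the 2 may share reads, since no source used here gives the strand setting of the counting. Cpne2 (−7.26), Aff3 (−5.77), Chd3 (−5.58), Ppm1l (−4.50) and Clec2i (−4.50) followed. All 18 immediate early genes measured were below 0, 11 of them at least 2-fold, with a median of −1.41, and all 7 MHC class II genes were below 0, 5 of them at least 2-fold, with a median of −2.29. Of 14 glycolysis genes 9 were at least 2-fold higher and 1 lower, with a median of 1.5.

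**Figure D5:**
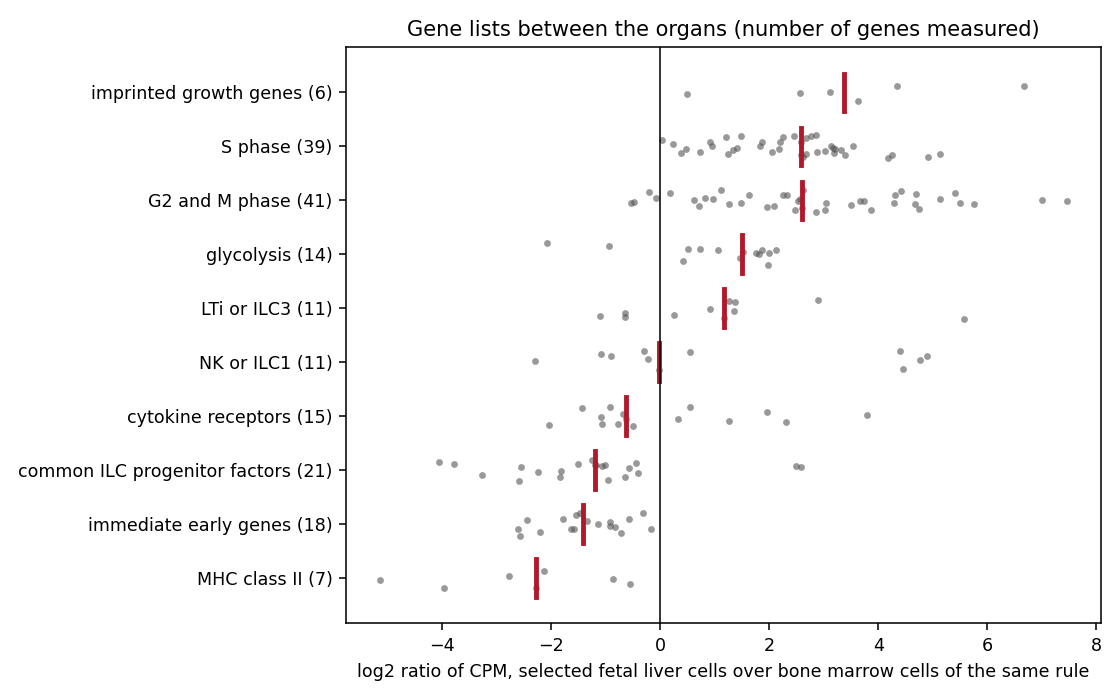
Log2 ratio of summed CPM, selected fetal liver cells over bone marrow cells of the same rule, for the measured genes of 10 lists, with the number of genes in brackets. Points are genes, those at 0 in one group being set at the bound of 3 counts, and red bars are list medians: 2.58 for S phase, −1.21 for ILC progenitor factors and −2.29 for MHC class II.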

How the data were processed

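Per the labels' protocols, sorted cells went into Chromium Single Cell 3' libraries (v2 chemistry), and UMIs were counted and non-cell barcodes filtered by the authors. The deposited values are raw UMI counts per gene and barcode with no normalization. Per the file headers the matrices came from software version 3.0.1, and the submitters' processing notes name mm10 and Seurat 4.0. The deposited gene and barcode lists hold other values, not measurements. No source used here gives the aligner or annotation.

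Barcodes with at least 500 genes and at most 10% mitochondrial UMIs were kept, 8583 of 8946 in fetal liver (91285900 UMIs, median 9294 per cell) and 7258 of 7367 in bone marrow (29941097 UMIs, median 3447.5). The libraries shared 19 barcodes, none of a selected cell. Scrublet marked 5 cells in fetal liver and 3 in bone marrow, which is too low a share to have worked, and no doublets were removed.

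Counts were summed per group of cells and scaled to 1000000 UMIs (CPM). Ratios carry exact conditional 95% intervals, shares exact Clopper-Pearson intervals, and a count of 0 is set at 3 counts, all for counting error only. A gene was called by size, at least 2-fold with at least 10 CPM in the higher group, with no test, since cells are not replicates. Thinning drew 2000 UMIs per cell and left out 1 selected cell and 8 bone marrow cells of the rule. Clusters (Leiden, resolution 1, with scanpy 1.11.5) used 2000 variable genes and 30 components. TMM factors came from edgeR 4.0.16. The ratio and interval code was tested on simulated data.

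The cells, gene lists and markers were chosen with earlier results of these data known. Named genes are the 12 largest and 8 smallest ratios of at least 50 CPM per comparison, and from each list up to 4 with the largest absolute ratio, with the gate genes and progenitor factors; unnamed gene models, mitochondrial, ribosomal protein and sex-linked genes were passed over. The comparisons with under-limit cells and within the selected cells, and the alternatives on Plac8 and on Zbtb16 in both organs, were added after the data were seen. Other genes were named after their values were seen. Some genes are not reported here. Alternatives are given in the closing section.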

Additional observations from a re-analysis of the deposited data

Results flagged for a closer look

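For 3 genes the cells of the rule stood at least 2-fold apart from the rest of their own organ in opposite directions in fetal liver and bone marrow. Genes measured against the rest of the organ numbered 6445 in fetal liver and 6998 in bone marrow. The difference between the organs was not tested. The fetal liver ratio of each of the 3 changed sign under another form of the rule, as given in the next section. Hmga2 was also higher in the selected cells than in under-limit cells, as given above. Prr29 had a log2 ratio of 1.52 in fetal liver and −1.72 in bone marrow. Sdc4 had 1.20 in fetal liver and −1.08 in bone marrow. Hmga2, a chromatin protein of fetal stem and progenitor cells, had −1.04 in fetal liver and 1.15 in the marrow, with 23.2 CPM in the selected fetal liver cells and 20.9 CPM in the bone marrow cells of the rule.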

How the results depend on the processing

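With 1 library per organ and no replicates, no spread between animals was measured. No paired analysis was possible because no replicate is shared between groups and no result comes from a test. The rule decides the size of the set: the share of selected cells was 11.9% with at least 1 Zbtb16 and Pdcd1 UMI, 2.12% with at least 3, 0.734% with at least 2 Zbtb16 UMIs, 0.594% with all 4 excluded sums at 0, 2.72% on cells thinned to 3000 UMIs and 8.87% with Plac8 left out.

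Of 18 alternatives in all, the counts of genes at least 2-fold higher and lower moved by over 1.5 times in these. Against the rest of fetal liver (90 and 93) they were 181 and 207 with 2 Zbtb16 UMIs, 519 and 436 with the sums at 0, 197 and 166 in cells with Y-linked and no Xist UMIs, 20 and 15 at 50 CPM, 143 and 310 with a pseudocount of 1 CPM and no minimum, and 15 and 55 against the mean of 5 classes of the rest. Only the higher count moved on thinned cells (44), without the 6% of cells with the most UMIs (58), without Plac8 (37) and with each cell weighing the same (35). Against bone marrow (971 and 1259) they were 368 and 367 at 50 CPM and 1705 and 2066 with the pseudocount, and 817 lower without Plac8. Against under-limit cells (13 and 39) they were 6 higher with 1 UMI, 36 and 71 with 3, 241 and 323 with 2 Zbtb16 UMIs, 386 and 457 with the sums at 0, 36 and 63 on thinned cells, 79 and 115 in Y-linked cells, 43 and 83 without Plac8, 3 and 14 at 50 CPM and 65 and 161 with the pseudocount. Between Zbtb16-bearing and Pdcd1-only cells (140 and 131) they were 83 and 81 with 1 UMI, 377 and 321 with 3, 1144 and 865 with the sums at 0, 377 and 351 on thinned cells, 547 and 547 in Y-linked cells, 60 higher without Plac8, 10 and 9 at 50 CPM and 676 and 690 with the pseudocount. Fewer selected cells were compared with 3 UMIs, with 2 Zbtb16 UMIs, with the sums at 0, on thinned cells and in Y-linked cells. The cause of these moves was not tested. With 2 Zbtb16 UMIs required, no Pdcd1-only cells exist and that comparison has no value.

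For 95 gene ratios past 2-fold, 21 of 1553 recomputed values changed sign. With at least 2 Zbtb16 UMIs these were Dgat1 (−0.18), Lta (−0.14), Mt1 (0.10) and Prr29 (−0.49) against the rest of fetal liver. With Plac8 left out they were Cpa3 (0.32), Hmga2 (0.65), Lta (−0.061) and Sdc4 (−0.014) against the rest, and Cck (−0.68) within the selected cells. On thinned cells they were Cck (0.93) and Hmga2 (0.59) against the rest. Hbb-bs became 0.84 against the rest and 0.36 against under-limit cells with at least 1000 genes per cell. Among cells with Y-linked UMIs S100a9 became 0.50 and Stfa1 0.14 against under-limit cells. S100a9 was at 0 in the selected cells, so its value is a bound at 3 counts and shows no reversal. With the sums at 0, Cd3d became −0.26, Fabp4 −0.12 and Raph1 −0.019 against under-limit cells, and Gadd45b 0.18 within the selected cells. Crem became −0.21 against under-limit cells with 2 Zbtb16 UMIs, and Id3 −0.63 against bone marrow with 3 UMIs. The Id3 value is a bound too, since Id3 was at 0 in the bone marrow cells. The cause of the other changes was not tested. Of 740 recomputed list medians 669 kept their sign.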
